A study of Mus musculus with 32 samples.

Results

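C-to-U editing in DART-seq was compared between WT and Mettl3 KO hippocampal neurons, RNA by RNA. Of 5643 RNAs with at least 1 called site, 5634 had an editing score in both genotypes and are described here. These RNAs hold 18214 of the 18231 deposited sites, against 55573 genes in the RNA-seq count table. The 16 DART-seq libraries, of 32 libraries in the series, fall into 8 groups of 2 by genotype, compartment (soma or neurites) and treatment (Ctrl or KCl), and the deposited scores average the 8 libraries of a genotype.

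The WT neurons came from C57BL/6 pups and the Mettl3-/- neurons from Mettl3Flox/Flox pups, both newborn. Both were grown for 15 days on porous membranes and given AAV that expresses Cre-P2A-dTomato, so WT neurons carried Cre as well. Activity was silenced in all cultures for 16 h with the sodium channel blocker tetrodotoxin (1 µM) and the NMDA receptor blocker D-AP5 (50 µM), and the KCl groups then received 55 mM KCl for 2 h. Per the study's methods, the human synapsin promoter drives Cre, so that deletion is limited to neurons, and the tissue of a litter, of both sexes, was pooled. Duplicates came from separate litters, and genotype, strain and litter cannot be told apart.

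m6A is a methylated adenosine that METTL3 writes on mRNA within a short consensus, RAC, where R is G or A. In DART-seq, a fusion of the cytidine deaminase APOBEC1 with the m6A-binding YTH domain is incubated with RNA and turns the C that follows the methylated A into U. RNA without m6A would show which edits the fusion makes on its own, and the study used the Mettl3 KO libraries as its control. The study reports reduced, not absent, m6A in KO neurons. Edits at remaining m6A and edits of the fusion alone cannot be told apart in the KO scores. In neurons, m6A has been linked to RNA decay, translation and transport into dendrites and axons.

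The study describes a score as the total of the C-to-U fractions over the called sites of an RNA. Most deposited WT scores do not equal the plain sum of the deposited site values. Of 3818 RNAs with several sites, 457 had a WT score within 1% of that sum. The median ratio of the sum to the WT score was 1.037. Retained editing is 100 × KO score / WT score, and the lost score is WT score minus KO score. The study kept only sites whose WT editing was at least 1.5-fold that in KO, so the sign of every difference is fixed, and a retained editing above 66.7% should be cut off. All editing values below are therefore a description, without a test or an error over replicates, and an SD of retained editing is a spread across RNAs. The read depth at the sites is unknown.

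Sites of RNAs at both ends of retained editing are shown first, since 1-site RNAs tie a ratio to a single sequence. All are 21 bases of the transcribed strand of GRCm38, 5′ to 3′, with the RAC in capitals and the edited C as its last letter. The first 5 RNAs had a KO score of 0 and the last 6 had the highest retained editing among 253 RNAs with 1 site, a WT score of at least 0.1 and a mean RNA-seq count of at least 100. Of the 253 RNAs, 26 had a KO score of 0, and the 5 shown are among those with the highest WT scores. In all 5, the WT score differed from the deposited value of the site, for Cpt1a with 0.268 against 0.240. It also differed for Malat1, Acvr1b and Gpc3, so these ratios do not rest on the deposited site value alone.
Cpt1a: tgggacttGACttcacccagg
Zfp667: gcattcagGACatattattgg
Gfm2: ctaaaggaGACaattgaagca
Gpx3: ggacacgtGACaattgtccca
Stum: cctcacagGACcgaggctgca
Malat1: ttatttgtAACttataattta
Dab1: gtgaagagGACtaaggattaa
Acadsb: gcgtcactGACaaaccatttc
Mrpl57: acattgcaGACcagctagacc
Acvr1b: gccacttaGACactttacctc
Gpc3: cggcaaggAACgggatgaaga

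Among the RNAs with a KO score of 0, 4 of the 5 sites shown lay in a 3′UTR. Over all RNAs with 1 site, the KO score was 0 for 18.4% of 592 in a 3′UTR and 19.2% of 1041 in coding sequence. The share thus differed little between these regions. The site of Cpt1a, the carnitine palmitoyltransferase that admits fatty acids to mitochondria, was at chr19:3384196-3384216 on the plus strand (WT score 0.268). Zfp667, a zinc finger gene, had its site at chr7:6306756-6306776 on the plus strand (WT score 0.218). The site of Gpx3, a secreted glutathione peroxidase, was at chr11:54909822-54909842 on the plus strand (WT score 0.189), and that of Stum at chr1:180434771-180434791 on the minus strand (WT score 0.188). The site of Gfm2, a mitochondrial translation factor, was in coding sequence at chr13:97155559-97155579 on the plus strand (WT score 0.206).

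The 6 RNAs at the other end showed no common region. The Malat1 site, in a nuclear long noncoding RNA, was at chr19:5799439-5799459 on the minus strand, and its score was 0.201 in WT and 0.138 in KO, a retained editing of 68.7%. The site of Dab1, the adaptor of reelin signalling, was in a 5′UTR at chr4:104479183-104479203 on the plus strand, with 62.7% retained. Acadsb, a mitochondrial acyl-CoA dehydrogenase, had a 3′UTR site at chr7:131444329-131444349 on the plus strand (60.6%), and Acvr1b, an activin receptor, one at chr15:101213555-101213575 on the plus strand (59.3%). The sites of Mrpl57, a mitochondrial ribosomal protein, at chr14:57826776-57826796 on the plus strand (59.4%) and of Gpc3, a glypican, at chrX:52365808-52365828 on the minus strand (59.0%) were in coding sequence. Of the 11 sites shown, 10 had a RAC inside the longer consensus DRACH, where D is A, G or T and H is A, C or T, and Gpc3 did not.

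Over all 5634 RNAs, the median retained editing was 30.8%, with the middle 50% of RNAs between 19.05% and 40.1%. Retained editing was under 20% in 1491 RNAs (26.5%) and 50% or more in 335 RNAs (5.95%). The KO score was 0 in 404 RNAs, of which 356 had 1 site, 47 had 2 or 3 sites, and 1 had more. As a total over sites, a score of 0 requires 0 at every site of an RNA. No RNA had a KO score above its WT score, as the selection of sites requires. The median score was 0.103 in WT and 0.0285 in KO. For another 9 RNAs, Snapc1l and Spp1 among them, the KO score was blank, and these were left out.

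**Figure D1:**
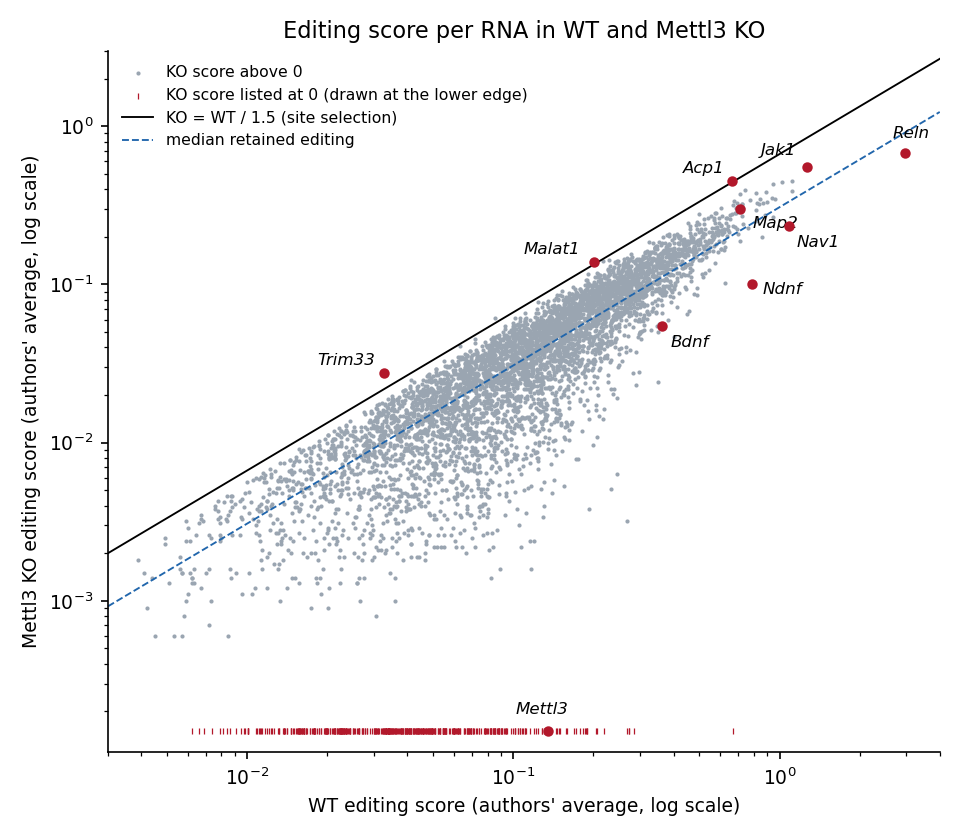
Editing score of each of 5634 RNAs in WT (x axis) and Mettl3 KO (y axis), both the authors' averages on log axes, with the 404 RNAs at a KO score of 0 drawn at the lower edge. All but 4 RNAs lie under the solid line that marks the 1.5-fold selection, and the cloud spreads downward at low WT scores.

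A total of 4 RNAs had a retained editing above 66.7%. Trim33, a ubiquitin ligase, retained 84.1% of a WT score of 0.0327, and B230217C12Rik retained 72.0% of 0.0853, each with 1 site. Malat1 was the third. Acp1, a low molecular weight phosphatase, was the only one with several sites, and retained 67.5% of a WT score of 0.666 over 13 sites. Only 9 further RNAs reached 60% or more. The WT score equalled the deposited value of the site within 1e-06 for 1247 of 1819 RNAs with 1 site, and differed by up to 0.0418 for the other 572. The highest retained editing among the 1247 was 63.1%, so Trim33, B230217C12Rik and Malat1 were among the 572. For Malat1, the site value was 0.224 and the WT score 0.201. The deposited fractions of the 13 Acp1 sites add to more than its WT score. Whether the difference between score and site value lies behind the 4 RNAs above the limit was not tested.

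Of the RNAs with the highest WT scores, those named here kept between 21.64% and 43.53% of them. Reln, which encodes reelin, an extracellular guide of neuronal layering, had 54 sites, all in coding sequence between chr5:21896031 and chr5:22286961, with WT fractions of 0.0109 to 0.1655 at a site. Its score was 2.96 in WT and 0.678 in KO, so that 22.9% was retained and the lost score of 2.28 was the largest of all RNAs. Jak1, a cytokine receptor kinase, retained 43.5% of 1.27 over 18 sites. Usp9x, a deubiquitinase, retained 40.7% of 1.11 over 9 sites. Nav1, a microtubule-binding navigator protein, retained 21.6% of 1.0824 over 18 sites, with a lost score of 0.848.

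Ndnf and Ccl27a also had large lost scores. Ndnf, a secreted neurotrophic factor, retained 12.7% of a WT score of 0.791 over 11 sites, and Ccl27a, a chemokine, 28.3% of 0.943 over 6 sites. Among the 1395 RNAs in the top quartile of WT score with a mean count of at least 100, those with the lowest retained editing named here had 1 to 4 sites. Plin2, a lipid droplet protein, had 3 sites and a KO score of 0, as had Sowaha with 2. Ppm1l, a protein phosphatase, retained 1.2% of a WT score of 0.268, Pgpep1, a pyroglutamyl peptidase, 1.96% of 0.193, and Lamb1, a laminin chain, 2.21% of 0.232 over 4 sites.

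At the high end of the same quartile, Malat1 and Acp1 were followed by Ube2n, a ubiquitin-conjugating enzyme, at 64.4% of 0.218 and Impa1, an inositol monophosphatase, at 62.6% of 0.229. Lrrc8b, an anion channel subunit, retained 57.9%, Gdpd1, a phosphodiesterase, 57.6%, and Tmem128, a membrane protein, 57.3%. Metap2, a methionine aminopeptidase, retained 56.99%, Septin6, a cytoskeletal GTPase, 56.9%, and Rpp14, a ribonuclease P subunit, 56.5%. These 10 RNAs carried 1 to 4 sites, apart from Acp1.

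Genes that the study followed closely were spread over this range. Camk2a, a postsynaptic kinase, retained 49.7% of a WT score of 0.1003, and Map2, a dendritic microtubule-associated protein, 41.9% of 0.712 over 16 sites. Ogdh, a citric acid cycle enzyme, retained 38.25% of 0.558, Homer1, a postsynaptic scaffold, 33.4% of 0.125, and Shank1, another scaffold, 29.03% of 0.227. Leo1, a transcription elongation factor, retained 18.3% of 0.231 and Bdnf, a neurotrophin, 15.02% of 0.3625. Actb, which encodes beta-actin, retained 54.3%, but of a WT score of only 0.0059 at 1 site.

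Retained editing was higher in RNAs with a higher WT score. In 4 equal groups of WT score, from the lowest to the highest, the median was 25.3%, 27.9%, 31.6% and 35.3%. The share of RNAs that retained under 20% was 40.7% in the lowest group and 9.09% in the highest, while the share that retained 50% or more was 7.88% and 5.11%. The spread narrowed as well, since the middle 50% of RNAs ran from 9.47% to 39.0% in the lowest group and from 27.8% to 41.7% in the highest. A KO score of 0 was found for 264 RNAs in the lowest group and 8 in the highest. The WT score is also the denominator of retained editing. In groups of the mean of both scores the medians were 22.02%, 27.2%, 32.1% and 36.5%. That mean holds the KO score, the numerator, which by itself favours a rise, so neither grouping is free of a shared term.

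**Figure D2:**
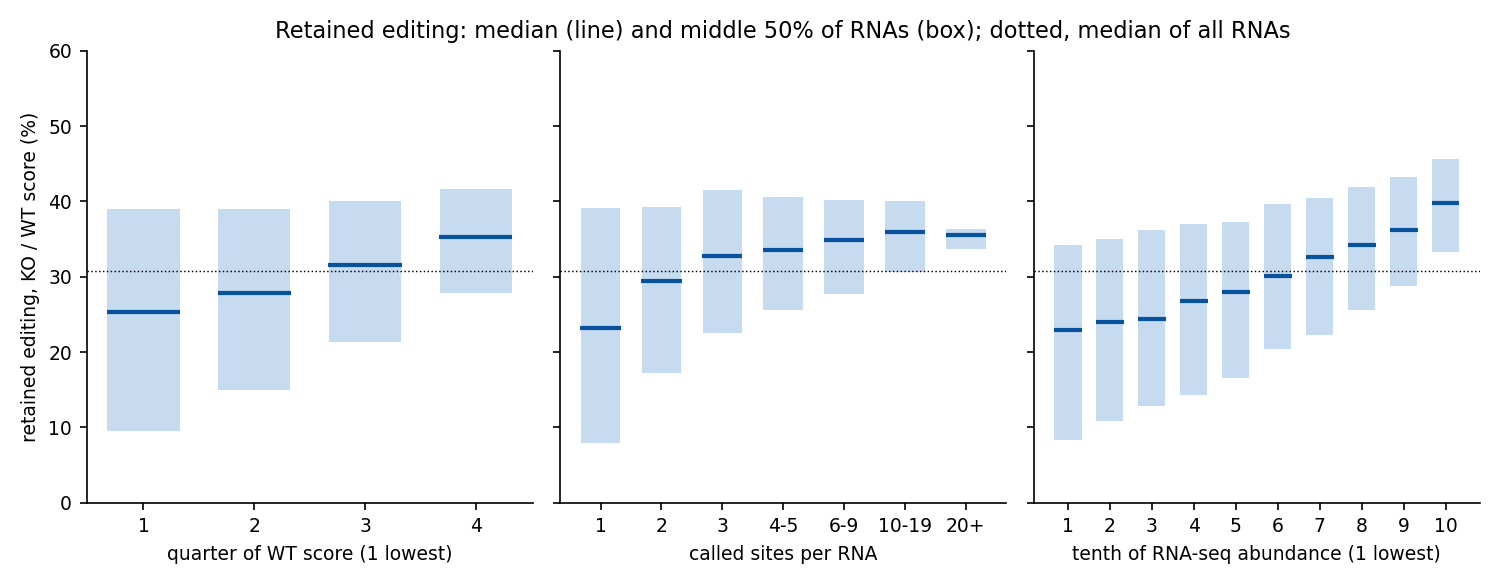
Retained editing (KO score as a percent of WT score) by quartile of WT score, by number of called sites and by decile of RNA-seq abundance, with the median as a line, the middle 50% of RNAs as a box and the median of all RNAs dotted. The median climbs from 23.2% at 1 site to 35.9% at 10 to 19 sites and from 22.9% in the lowest abundance decile to 39.7% in the highest, and the boxes narrow.

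The number of sites moved with the WT score. RNAs with 1 site (1819 RNAs) had a median retained editing of 23.2%, those with 2 sites 29.4%, with 3 sites 32.8%, with 4 to 5 sites 33.5%, with 6 to 9 sites 34.8%, and with 10 to 19 sites 35.9%. The 10 RNAs with 20 or more sites had a median of 35.5%. The SD across RNAs went from 18.1 percentage points at 1 site to 7.96 at 10 to 19 sites. Since a score totals over sites, the ratio of an RNA with many sites averages over them, which by itself narrows the spread. Grouped by WT score per site, the medians were 31.3%, 29.3%, 30.4% and 32.7%, with little order. Within RNAs of 1 site, the groups of WT score had medians of 23.6%, 20.7%, 21.2% and 26.9%.

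RNA abundance moved with retained editing too. Abundance here is the share of RNA-seq fragments (CPM, counts scaled to the same library total), averaged over the 16 RNA-seq libraries, which also grows with the length of an RNA. In 4 equal groups of abundance, the median retained editing was 23.6%, 27.1%, 32.0% and 37.8%, and a KO score of 0 was found for 204, 122, 64 and 14 RNAs. Across RNAs, the Spearman correlation of retained editing was 0.34 with CPM, 0.23 with WT score, 0.236 with the number of sites and -0.071 with exon length. These RNAs share libraries and are not independent replicates. Abundant RNAs are read more deeply, and the part of depth in these values was not tested.

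The rise with WT score depended on abundance. Between the lowest and the highest quartile of WT score, the median went from 15.4% to 33.1% in the least abundant quartile of RNAs, from 20.6% to 31.6% in the second, and from 26.7% to 34.6% in the third. In the most abundant quartile, it was 38.85% in the lowest and 37.6% in the highest quartile of WT score. Among RNAs of the most abundant quartile with 1 site, the median was 40.4%, against 36.5% for those with 10 to 19 sites. In the least abundant quartile, RNAs with 1 site had a median of 18.98% and those with 6 to 9 sites 32.99%.

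**Figure D3:**
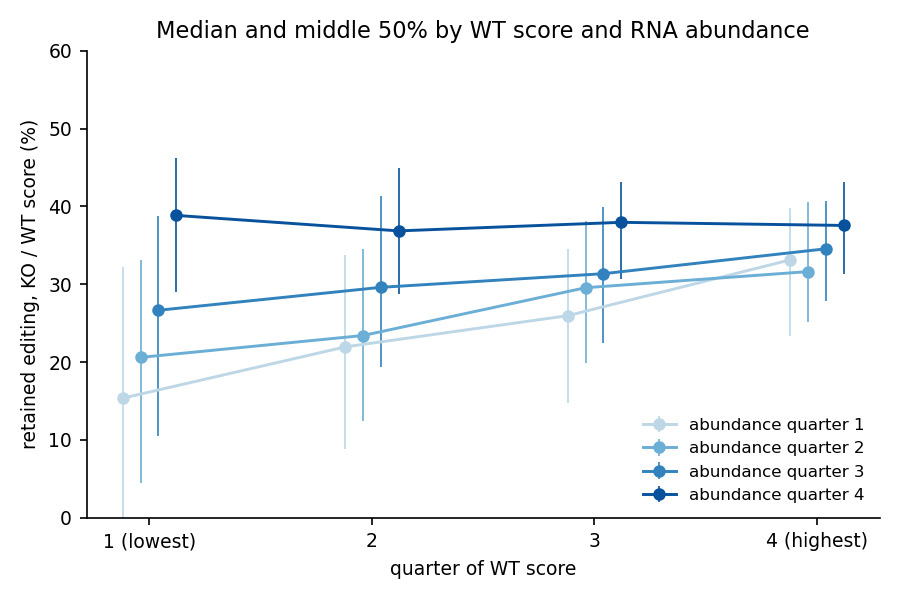
Median retained editing (dots, with bars for the middle 50% of RNAs) by quartile of WT score, drawn separately for 4 quartiles of RNA-seq abundance. The 3 lower quartiles of abundance slope upward with WT score, while the most abundant quartile lies between 36.9% and 38.9% throughout.

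Median retained editing differed little by the sequence at the site, set beside the spread across RNAs. Among RNAs with 1 site, the median retained editing was 22.6% for the 963 GAC sites and 24.1% for the 856 AAC sites. By the base that follows the edited C, it was 25.2% for A, 24.7% for T, 22.1% for G and 19.03% for C, and 50.5% of RNAs with a following C retained under 20%, against 39.9% with A. Sites with a following C also had the lowest WT score, with a median of 0.0326 against 0.0542 with A. By the base before the RAC, the median was 24.4% for T, 24.1% for A, 22.97% for G and 20.8% for C. The 1305 DRACH sites had a median of 24.3% and the 514 other sites 21.2%. These gaps are small beside the spread, in which the middle 50% of DRACH sites ran from 8.87% to 39.2%.

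Sites in 3′UTRs had a median retained editing of 25% (592 RNAs), sites in coding sequence 22.2% (1041 RNAs) and sites in 5′UTRs 14.8% (72 RNAs). By genomic distance to the nearest annotated stop codon, the highest median, 27.4%, was found up to 300 bases after it, and the lowest, 20.9%, more than 1 kb after it. Sites more than 1 kb before it had 21.2%. The distance is genomic and does not follow the regions, since a coding site such as that of Gpc3 can count as after a stop codon and a 5′UTR site such as that of Dab1 as before it.

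By function, 31 lists of at least 5 scored RNAs were compared with all RNAs, and 9 had a median below 30.8% and 22 above it. Because abundance differed between lists, each RNA was also set against the median of all scored RNAs in its own decile of abundance, and that difference is given in percentage points. On this second scale 15 lists lay below 0. Lists are described by counts and medians, and none was tested. Members were picked by gene symbol, so a list can hold genes outside the family in its name. Examples are Rab11fip4 in the Rab GTPase list and Psmg1 in that of proteasome subunits. They were not matched for the number of sites.

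**Figure D4:**
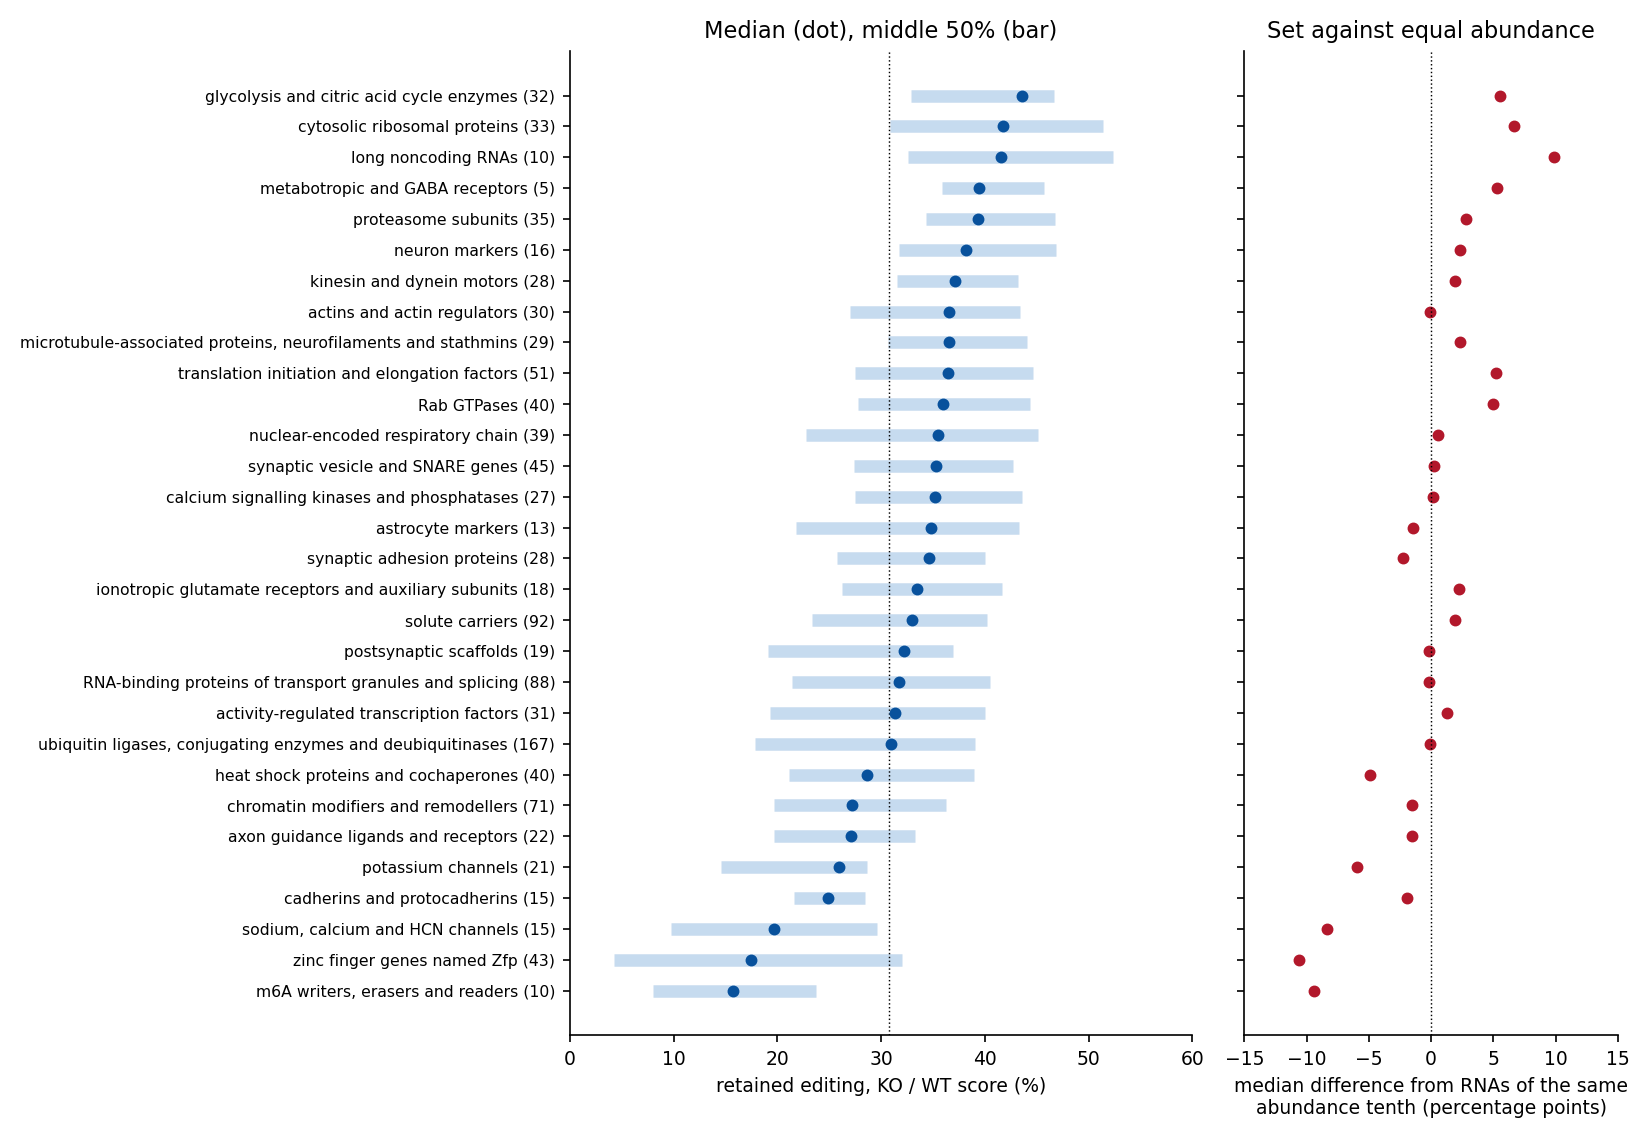
Retained editing of gene lists with at least 5 scored members (left; dot, median; bar, middle 50% of members; number of scored members in brackets; dotted line, median of all RNAs) and the median difference of members from RNAs of the same abundance decile (right, percentage points). The m6A machinery, Zfp genes and sodium, calcium and HCN channels lie lowest on the left and are below -8 on the right, while glycolysis, ribosomal and long noncoding RNA lists lie highest.

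The lowest median belonged to the m6A machinery itself. Of 15 writers, erasers and readers detected in RNA-seq, 10 had a score, and their median retained editing was 15.75%, and the difference from RNAs of equal abundance was -9.44 points. Among writers, Mettl3, the catalytic subunit, had a KO score of 0, Wtap, which holds the complex in nuclear speckles, retained 6.72% of a WT score of 0.135, and Rbm15b, an adaptor, 11.7%. Zc3h13, another subunit, had the highest WT score of the list, 0.266 over 4 sites, and retained 14.0%. The erasers Alkbh5 and Fto retained 22.6% and 30.7%, the latter being the highest of the 10. Among the YTH readers, Ythdf2 retained 6.79%, Ythdf1 17.5%, Ythdf3 24.1% and Ythdc1 24.9%. The members beyond Mettl3, Zc3h13 and Fto were named after their values were seen.

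The 3 sites of Mettl3 lay in coding sequence between chr14:52296135 and chr14:52296737 on the minus strand, with WT fractions of 0.0111 to 0.108. Mettl3 RNA was 7.87 to 18.97 CPM in the 8 WT RNA-seq libraries (median 12.2) and 3.57 to 12.8 CPM in the 8 KO libraries (median 7.68). The KO libraries were below the WT libraries in soma, with and without KCl, and in untreated neurites. In KCl-treated neurites, they overlapped, at 3.61 and 8.40 CPM in KO against 7.87 and 9.66 CPM in WT. The log2 change was -0.87 ± 0.20 (SE), with an edgeR adjusted p of 0.2035 in the 2 sums a genotype described below. An edgeR fit of 16 separate libraries gave an adjusted p of 0.0108. That fit counts libraries of the same litter as independent replicates, which they are not. A whole-gene count also holds exons that Cre does not remove, and the deleted exon was not analysed here.

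Zinc finger genes named Zfp and lists of ion channels also had medians below that of all RNAs. Of 43 scored zinc finger genes named Zfp, 23 retained under 20% (53.5%, against 26.5% of all RNAs). Their median was 17.45%, with a difference from equal abundance of -10.62 points. A KO score of 0 was found for 9 of them (20.9%, against 7.17% of all RNAs), Zfp148 and Zfp667 included. Zfp131, with the highest WT score of the list (0.385), retained 43.7%. Sodium, calcium and HCN channels had a median of 19.7% in 15 RNAs, 8 of them under 20% (53.3%), and a difference from equal abundance of -8.34 points. Their members ran from Cacnb2, a calcium channel beta subunit and 1 of 3 at a KO score of 0, to Scn3b, a sodium channel beta subunit at 42.2%. Potassium channels had a median of 25.9% in 21 RNAs, and Kcnab1, an auxiliary subunit, retained 14.55% of 0.448. Cadherins and protocadherins had a median of 24.9% in 15 RNAs, axon guidance genes 27.1% in 22, and chromatin genes 27.2% in 71. Against equal abundance, they differed by only -1.94, -1.55 and -1.54 points in that order. Among chromatin genes, Brwd1, a bromodomain protein, retained 16.4% of a WT score of 0.626. Ezh1, a histone H3 methyltransferase, was 1 of 8 with a KO score of 0 (11.3%). Of the chromatin genes, 26.8% retained under 20%, near the share of all RNAs. Plxna4, a semaphorin receptor, also had a KO score of 0, over 2 sites.

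Lists of metabolic and translation genes had medians above that of all RNAs, by differing amounts against equal abundance. Glycolysis and citric acid cycle enzymes had a median of 43.5% in 32 RNAs, 5.56 points above equal abundance, from Pdhb, a pyruvate dehydrogenase subunit, at 14.6% to Ldhb, a lactate dehydrogenase, at 55.9%. Cytosolic ribosomal proteins had a median of 41.7% in 33 RNAs, with 10 at 50% or more (30.3%, against 5.95% of all RNAs). Their median WT score was only 0.0300, and their reads can be shared with processed pseudogenes. Rpl5, the ribosomal protein with the highest WT score (0.342), retained 49.5%. Translation factors had a median of 36.45% in 51 RNAs, and Eif3a, an initiation factor, retained 60.2%. The proteasome list had a median of 39.3% in 35 RNAs, 2.77 points above equal abundance, and the Rab list 35.9% in 40. Nuclear-encoded respiratory chain genes had 35.49% in 39 RNAs, only 0.54 points above equal abundance, and solute carriers 33% in 92. Near the median of all RNAs were ubiquitin enzymes (30.9% in 167 RNAs) and RNA-binding proteins (31.7% in 88). Heat shock proteins and cochaperones had 28.7% in 40, with a difference from equal abundance of -4.93 points. Long noncoding RNAs had a median of 41.6% in 10 RNAs, 9.84 points above equal abundance, and Meg3, with 20 sites and a WT score of 0.813, retained 36.2%.

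Lists of synaptic and cytoskeletal genes had medians of 32.2% to 39.45%. Ionotropic glutamate receptors and their auxiliary subunits had a median of 33.5% in 18 RNAs, and Gria2, an AMPA receptor subunit, retained 41.3% of 0.515. Postsynaptic scaffolds had a median of 32.2% in 19 RNAs, from Sipa1l3 at 1.64% to Dlg4, which encodes PSD-95, at 46.4%. Synaptic vesicle and SNARE genes had a median of 35.3% in 45 RNAs, 0.23 points above equal abundance, and Syngr1, a synaptic vesicle protein, retained 59.0%. Microtubule-associated proteins, neurofilaments and stathmins had 36.5% in 29 RNAs and kinesin and dynein motors 37.1% in 28. Synaptic adhesion proteins had 34.6% in 28 RNAs, calcium signalling kinases and phosphatases 35.2% in 27 (0.13 points above equal abundance), metabotropic and GABA receptors 39.45% in only 5, and actins and their regulators 36.6% in 30. Activity-regulated transcription factors had 31.3% in 31 RNAs. Fos and Jun, both immediate early factors with 1 site, stood at the ends of that list with a KO score of 0 and a retained editing of 55.3%, at WT scores of 0.0204 and 0.0115.

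Since Cre was limited to neurons, lists of cell type markers were compared. All 16 neuron markers had a score, and their median retained editing was 38.2%, from Nefm, a neurofilament, at 21.3% to Camk2a. Of 15 astrocyte markers 13 were scored, and their median was 34.8%, from S100b, a calcium-binding protein, at 11.6% to Clu, a secreted chaperone, at 47.9%. Against equal abundance the 2 lists differed by 2.32 and -1.47 points. Of the other markers, 2 of 14 oligodendrocyte lineage, 1 of 12 microglia and 2 of 14 fibroblast and vessel genes were scored, which is too few for a median.

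The RNA-seq libraries had 33789183 to 71394235 counts, and all neuron markers were detected. Astrocyte markers were present in every library, at a summed 3243 to 6094 CPM in WT and 4629 to 42329 CPM in KO. The soma and neurite libraries of KCl-treated Mettl3 KO replicate 1 stood apart, with 25477 and 42329 CPM of astrocyte markers and 5758.5 and 10222 CPM of oligodendrocyte lineage markers, which in the other KO libraries did not exceed 233.3 CPM. Microglia markers summed to 35.5 to 69.4 CPM in WT and 45.4 to 774.7 CPM in KO, and fibroblast and vessel markers to 161.8 to 370.0 and 262.6 to 2893 CPM. Neuron markers summed to 6884 to 12761.5 CPM in WT and 2657 to 10287 CPM in KO. In such bulk samples, fewer cells of a type and less RNA per cell cannot be told apart. Whether the DART-seq library of that replicate shares this make-up could not be seen in the averages, and its part in the KO scores was not tested.

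RNA abundance was compared between genotypes to see which low KO scores came with little RNA. With the 4 RNA-seq libraries of a litter summed (2 sums a genotype), edgeR's quasi-likelihood test with Benjamini-Hochberg adjustment called 0 of 23335 genes (0.00%), 4478 (19.2%) had an unadjusted p under 0.05, and DESeq2 called 2294 (9.83%). Of the 5567 scored RNAs tested, 1036 (18.6%) had an unadjusted p under 0.05, and 89 of the 399 with a KO score of 0 (22.3%). RNAs at least 1.5-fold higher in KO had a median retained editing of 27.9%, those at least 1.5-fold lower 30.3%, and the rest 31.3%. The Spearman correlation between retained editing and the KO-to-WT change in abundance was -0.029 across RNAs.

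RNAs with low retained editing were set beside their abundance. Cpt1a was 3.89 to 8.80 CPM in WT and 6.39 to 57.9 CPM in KO, and Zfp667 20.6 to 47.85 CPM and 22.5 to 62.5 CPM. Reln was 71.2 to 178.5 CPM in WT and 10.3 to 189.0 CPM in KO, and Ndnf 25.8 to 61.5 CPM and 1.73 to 48.9 CPM. With compartments and treatments pooled, all 4 overlapped between genotypes. Within groups, Reln in KO was below WT in soma, with and without KCl, and in KCl-treated neurites. In untreated neurites it overlapped, at 27.15 and 188.97 CPM in KO against 157.98 and 130.15 CPM in WT. The log2 change of Reln was -0.913 ± 0.596 (SE), with an edgeR adjusted p of 0.4337. Of the RNAs with high retained editing, Malat1 was 2347 to 3856 CPM in WT and 1235 to 11215 CPM in KO. Acp1 was 74.7 to 93.8 CPM in WT (median 83.4) and 54.8 to 68.7 CPM in KO (median 60.3), without overlap (edgeR adjusted p = 0.222). Across all genes tested, KO and WT libraries did not overlap for 3.01%, and among the scored RNAs for 113 below WT and 84 above (3.5%).

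**Figure D5:**
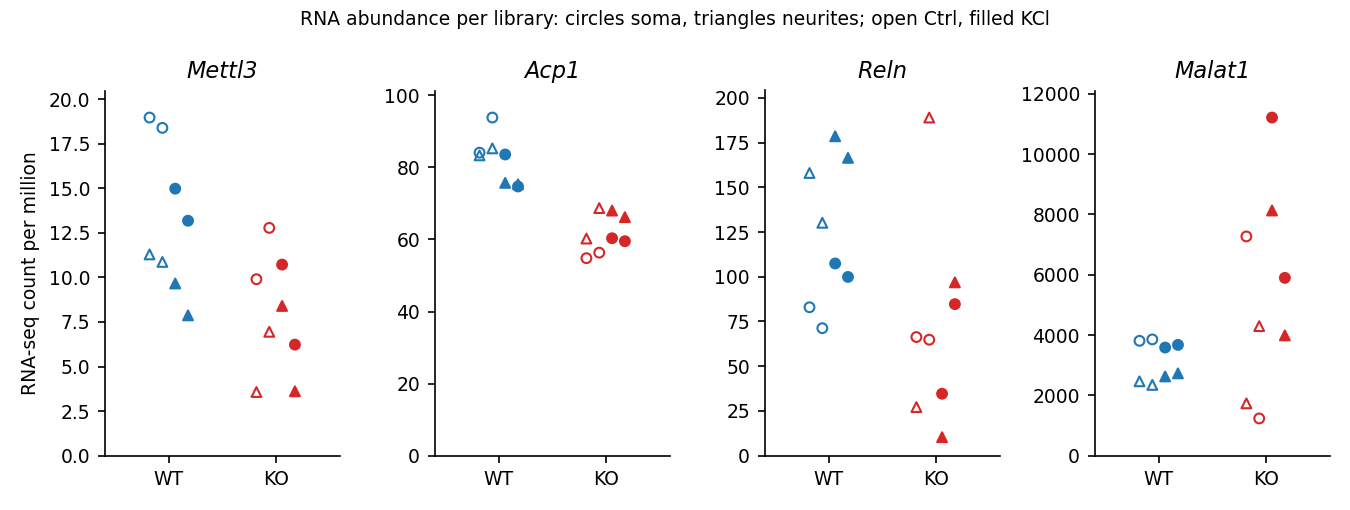
RNA-seq CPM of Mettl3, Acp1, Reln and Malat1 in each of 8 WT and 8 Mettl3 KO libraries (circles, soma; triangles, neurites; open, Ctrl; filled, KCl). Acp1 is lower in KO without overlap, and the other 3 overlap between genotypes.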

How the data were processed

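Retained editing was computed from the deposited editing scores of 16 DART-seq libraries, the site list and the RNA-seq count table. Per the labels, 50 ng of RNA was incubated with 250 ng APOBEC1-YTH for 6 h (the study's methods give a shorter incubation), and STAR 2.7.7a, featureCounts 2.0.1 and mm10 are named in the submitters' processing notes. Deposited RNA-seq values are raw counts of fragments that the authors assigned to genes. The study describes the deposited editing score as a total of C-to-U fractions over the sites of an RNA, averaged over 8 libraries of a genotype. The deposited fraction of a site is the authors' WT average, and most scores are not the plain sum of these fractions. Sites needed 50 reads, 3 mutations, 2 replicates, a RAC motif and 1.5-fold editing over KO. The deposited exon length and number of sites were used as given. Columns of fold changes and adjusted p-values hold the authors' own comparisons and were not used.

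Gene places came from GRCm38 with GENCODE M21 by symbol, chromosome and strand (5630 of 5643 RNAs matched). Abundance was fitted with edgeR 4.0.16 (TMM, mean count of at least 10, adjusted p of at most 0.05 and 1.5-fold) in R 4.3.3, with DESeq2 1.42.0 as an alternative, after a trial on simulated counts. Python 3.11.15 with pandas 2.3.3 was used for the rest. Mitochondrially encoded genes had 0 counts. PCR reads carry no molecular identifiers, so depth covers counting error only. Alternatives covered low-value filters, numbers of sites, KO scores of 0, scaling, tool, libraries and replicates. Those added after seeing values were the abundance quartiles and deciles and the 1-site RNAs whose score equals the site value.

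Named RNAs were the 6 with the highest WT score and the 6 with the largest lost score, the 10 lowest and 10 highest in retained editing (top quartile of WT score, mean count of at least 100, ties by WT score), the extremes of each list (the first listed where several tied at 0), Mettl3 and 8 genes the study discusses. The members and lists were chosen with earlier results of these data known. Some RNAs and 1 list that these rules name are not reported here.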

Additional observations from a re-analysis of the deposited data

How the results depend on the processing

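Scores are averages over libraries, so no replicate of the DART-seq data could be left out, and the depth at a site limits every low KO score. A mean count of at least 100, which kept 5520 of the 5634 RNAs and so could change little, gave a median of 30.9%. The share under 20% was then 26.25% and the share of 50% or more 5.98%. The median was 32.08% at WT scores of at least 0.05, 23.2% with 1 site, 33.9% with 3 or more, 32.25% without KO scores of 0, 32.19% as a ratio of sums and 37.8% in the top abundance quartile. Under the first 4 of these settings, the share under 20% was 21.9%, 44.0%, 12.8% and 20.8%, and the share of 50% or more was 5.27%, 9.68%, 3.44% and 6.41%. The step from the lowest to the highest quartile of WT score, 9.97 points, was 14.5 by the mean of both scores, 1.45 by WT score per site, 3.25 with 1 site, and 17.8, 11.02, 7.90 and -1.29 within the 4 abundance quartiles. Differences by sequence and region kept their sign in each alternative, but at a site WT editing of at least 0.05 the difference of C from A after the RAC went from -6.18 to -3.47 points, of GAC from AAC from -1.51 to -0.64, and of 3′UTR from coding sites from 2.79 to 5.72. Set against equal abundance, an alternative added after seeing the data like the abundance quartiles, 15 lists in place of 9 were low, and 6 changed side: postsynaptic scaffolds (-0.15), synaptic adhesion proteins (-2.23), actins (-0.06), RNA-binding proteins (-0.19), ubiquitin enzymes (-0.12) and astrocyte markers (-1.47).

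For abundance, edgeR called 0 genes, also with RLE scaling, a mean count of 100 or soma libraries, and DESeq2 called 2294. Without a filter edgeR called 19 genes, in untreated libraries 120, and in 16 separate libraries 3859. The last fit counts libraries of the same litter as independent replicates. Leaving out a litter gave 1 to 9317 calls: 1 without either WT litter, 4749 without KO replicate 1 and 9317 without KO replicate 2, where 1 KO sum is assumed to vary like the WT sums. A replicate block in the fit of 16 separate libraries gave 3868 calls, with the same limit. Replicate numbers did not pair the genotypes, whose deviations correlated at -0.058 to 0.139. The causes were not tested.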
